A study of Mus musculus with 16 samples.

Results

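H19 and 9 further imprinted growth genes were followed in mouse liver after repeated injury with CCl4, a solvent that hepatocytes turn into a toxic radical. The genes were H19, Igf2, Dlk1, Meg3, Peg3, Plagl1, Cdkn1c, Grb10, Mest and Ndn. They were found by their names in the array's own annotation, and 10 of 10 were on the array, among 36383 gene names. Together they had 25 of the 55560 probes, and 22 of the 25 were measurable enough to be tested. The set was selected on the measured rise of the H19 probes after CCl4, which is therefore described here without a test.

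The study compared male BALB/c mice that were wild type (WT) or carried a germline deletion of Lcn2 (Lcn2-/-), the gene for the secreted protein lipocalin 2. The deletion was made on a mixed B6.129 background and then crossed onto BALB/c. Animals were 6 to 8 weeks old at the start. CCl4 in corn oil was injected into the peritoneum at 0.5 ml/kg, 2 times per week for 4 weeks, controls received corn oil for the same time, and livers of the CCl4 mice were taken 48 h after the last dose. WT mice gave 4 control and 5 CCl4 arrays, and Lcn2-/- mice gave 3 and 4, each of whole liver RNA. The study calls the WT animals littermates, and the labels do not say which animals shared a litter or cage. In whole tissue, more cells of a type and more RNA per cell cannot be told apart. The unit of every level below is the log2 signal of a probe on an Agilent array after quantile normalization. A probe that the image software did not call well above background on an array has only an upper bound there, and signals of different probes cannot be set against each other.

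Imprinted genes are expressed from the maternal or the paternal copy alone. Several of them are active together in fetal tissues, where paternally expressed genes tend to promote growth and maternally expressed genes to restrain it, and most are turned down in the liver after birth. H19 is a maternally expressed noncoding RNA that shares enhancers and an imprinting control region with Igf2, a paternally expressed fetal growth factor. H19 RNA is abundant in fetal liver and scarce in the adult organ.

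The 60-base probes that report on H19 are printed because the description rests on them. They lie on the minus strand of chromosome 7 (mm9) and are listed from the 5′ to the 3′ side of the gene, in lower case throughout as no base is singled out.
A_55_P1961125, chr7:149762417-149762476: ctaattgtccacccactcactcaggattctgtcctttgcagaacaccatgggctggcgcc
A_30_P01026972, chr7:149762173-149762232: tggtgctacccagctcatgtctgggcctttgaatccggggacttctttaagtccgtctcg
A_30_P01028827, chr7:149762113-149762172: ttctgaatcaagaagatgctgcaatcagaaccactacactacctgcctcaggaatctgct
A_30_P01028007, chr7:149761957-149762016: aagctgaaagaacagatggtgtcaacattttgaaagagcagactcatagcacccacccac
A_30_P01025068, chr7:149761756-149761815: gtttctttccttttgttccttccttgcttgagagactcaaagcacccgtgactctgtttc
A_30_P01021588, chr7:149761693-149761752: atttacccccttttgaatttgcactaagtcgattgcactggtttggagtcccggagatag
A_55_P1961127, chr7:149761492-149761551: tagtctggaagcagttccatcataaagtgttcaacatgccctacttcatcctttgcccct
The last of these is the lead probe, the brightest tested probe of the gene. The first lies 925 bases upstream of it. Over the 21 pairs of these probes the longest run of identical bases was 8, so they read separate stretches of the RNA.

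H19 was low in control livers and high in every CCl4 liver of both genotypes. The lead probe read 6.39, 5.9, 7.49 and 6.28 in WT controls and 6.77, 5.75 and 6.29 in Lcn2-/- controls. After CCl4 it read 13.04, 12.43, 10.57, 13.48 and 12.1 in WT and 15.09, 13.31, 13.2 and 11.61 in Lcn2-/-. The lowest CCl4 liver thus lay above the highest control, which was WT control 3, and the probe was well above background on all 16 arrays. The rise was 5.81 on the log2 scale in WT, or 56.2-fold, and 7.03 in Lcn2-/-, or 131-fold. WT CCl4 1 shared a slide with all 7 controls, and within that slide the WT rise was 6.52. All other CCl4 arrays were on a second slide, so that slide and treatment cannot be told apart in Lcn2-/- livers.

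Along the gene, 6 of the 7 H19 probes rose, with fitted differences of 4.13 to 6.82 in WT and 5.84 to 8.12 in Lcn2-/-. In control livers 1 of the 6 was well above background on every array, and 3 were so on 0 arrays. The rise is a bound for those 3 probes in WT and for 4 probes in Lcn2-/-. The fourth is the probe 201 bases upstream, which gave the 8.12 but was dark in all 3 Lcn2-/- controls, so that its rise there is at least 83.3-fold. In WT this probe gave the 6.82 and was well above background in 1 of 4 controls, so that value rests in part on upper bounds. The probe 681 bases upstream of the lead probe was at least 13.4-fold higher after CCl4 in WT and at least 16.7-fold higher in Lcn2-/-. The bound sets the mean of the bright group against the dim group, each dim array taken at its own value or, where higher, at the lowest signal of any probe well above background on it. The corresponding bounds were at least 11.8-fold and 16.9-fold for the probe at 621 bases and at least 11.3-fold and 15.5-fold for the probe at 465 bases. The most 5′ probe stayed dark: it was well above background on 0 of 16 arrays, and its group means lay between 3.79 and 4.83.

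**Figure D1:**
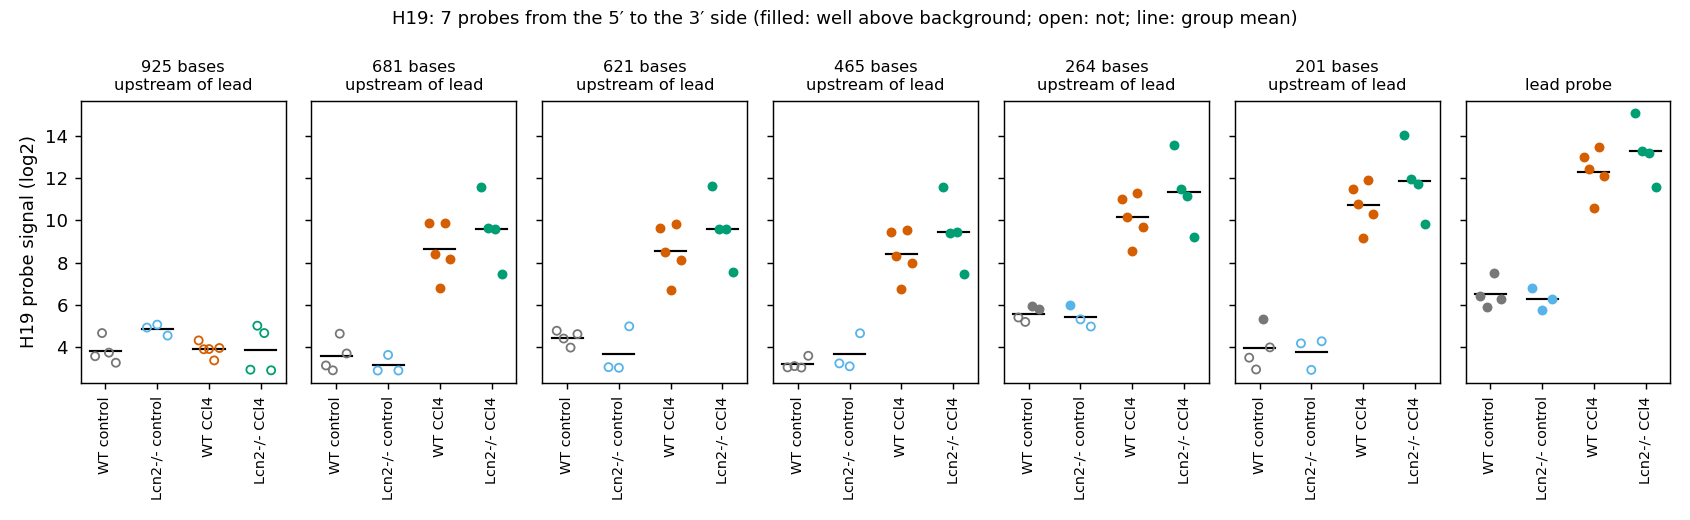
Signal (log2) of the 7 H19 probes by group, from the 5′ probe on the left to the lead probe on the right, 1 point per array, filled where well above background and open where not, with a line at the group mean. In 6 panels all CCl4 arrays sit above all controls, while the probe 925 bases upstream has only open points between 2.88 and 5.05.

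H19 varied widely between treated livers of the same group. Within WT CCl4 the highest liver had 7.52-fold the lead-probe signal of the lowest, and within Lcn2-/- CCl4 the ratio was 11.2-fold. The 6 probes put the 5 WT CCl4 livers in the same order, 4, 1, 2, 5 and 3 from high to low. Lcn2-/- CCl4 1 was the highest and Lcn2-/- CCl4 4 the lowest of their group on each of the 6, and livers 2 and 3 changed places on 2 of them. The spread within a group was therefore shared by probes with no identical run of over 8 bases.

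Loss of Lcn2 gave no called difference in H19. Under CCl4 the lead probe was 0.98 higher in Lcn2-/- than in WT, with a 95% interval of -0.4 to 2.36 (adjusted p = 0.557, limma, and p = 0.302 in a two-sided exact permutation test over 126 splits). Without Lcn2-/- CCl4 1 the difference was 0.38, without WT CCl4 3 it was 0.54 and without Lcn2-/- CCl4 4 it was 1.54. The groups overlapped, and the same difference on the 6 tested probes ranged from 0.95 to 1.22. On the second slide alone, with 4 livers of each genotype, it was 1.15 (adjusted p = 0.612). In controls the difference was -0.24, with an interval of -1.81 to 1.33 (adjusted p = 1). The response of Lcn2-/- livers minus that of WT livers was 1.22, with an interval of -0.87 to 3.31 (adjusted p = 1).

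Igf2, the neighbour of H19 and the ligand that gives the network its growth function, was not detected in any group. Its 1 probe (chr7:149839661-149839720, mm9) was well above background on 0 of 16 arrays. It read 3.26 to 4.51 in WT controls, 2.94 to 3.81 in Lcn2-/- controls, 3.01 to 3.67 in WT CCl4 and 2.93 to 4.72 in Lcn2-/- CCl4. The lowest signal of a probe well above background lay between 4.36 and 5.68 over the arrays. Groups that are all dark allow no fold. This probe saw no Igf2 RNA above background in the livers in which 6 H19 probes were high, and a single probe cannot speak for all Igf2 transcripts.

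Of the 9 genes besides H19, 8 could be tested, and 4 of them passed as higher after CCl4 in each genotype: Dlk1, Plagl1, Cdkn1c and Mest. Of the 8, 0 passed as lower. Over all 33014 tested probes, 15.0% were called in WT and 11.1% in Lcn2-/- (limma, adjusted p under 0.05), and 7.34% and 6.16% were called higher. Because the set was chosen in this contrast, nothing is read from its count against that background. The median difference of the 8 lead probes was 1.01 in WT and 1.13 in Lcn2-/-, beside -0.03 and -0.02 over the lead probes of all tested genes. Within the first slide, where WT CCl4 1 is the only CCl4 liver and is assumed to vary like the other groups, 2 genes stayed past the threshold. They were Dlk1 and Cdkn1c, while Plagl1 was 1.92 higher (adjusted p = 0.0739) and Mest 0.96 higher (adjusted p = 0.31). With slide as a fixed block, Dlk1 alone stayed past the threshold in Lcn2-/-. Plagl1 was 2.55 higher there (adjusted p = 0.123), Cdkn1c 1.5 (adjusted p = 0.134) and Mest 1.51 (adjusted p = 0.218). Only the WT CCl4 group had arrays on both slides, so the slide term of that fit rests on WT CCl4 1. For Lcn2-/- the same term is assumed, so these values do not tell slide from treatment there.

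**Figure D2:**
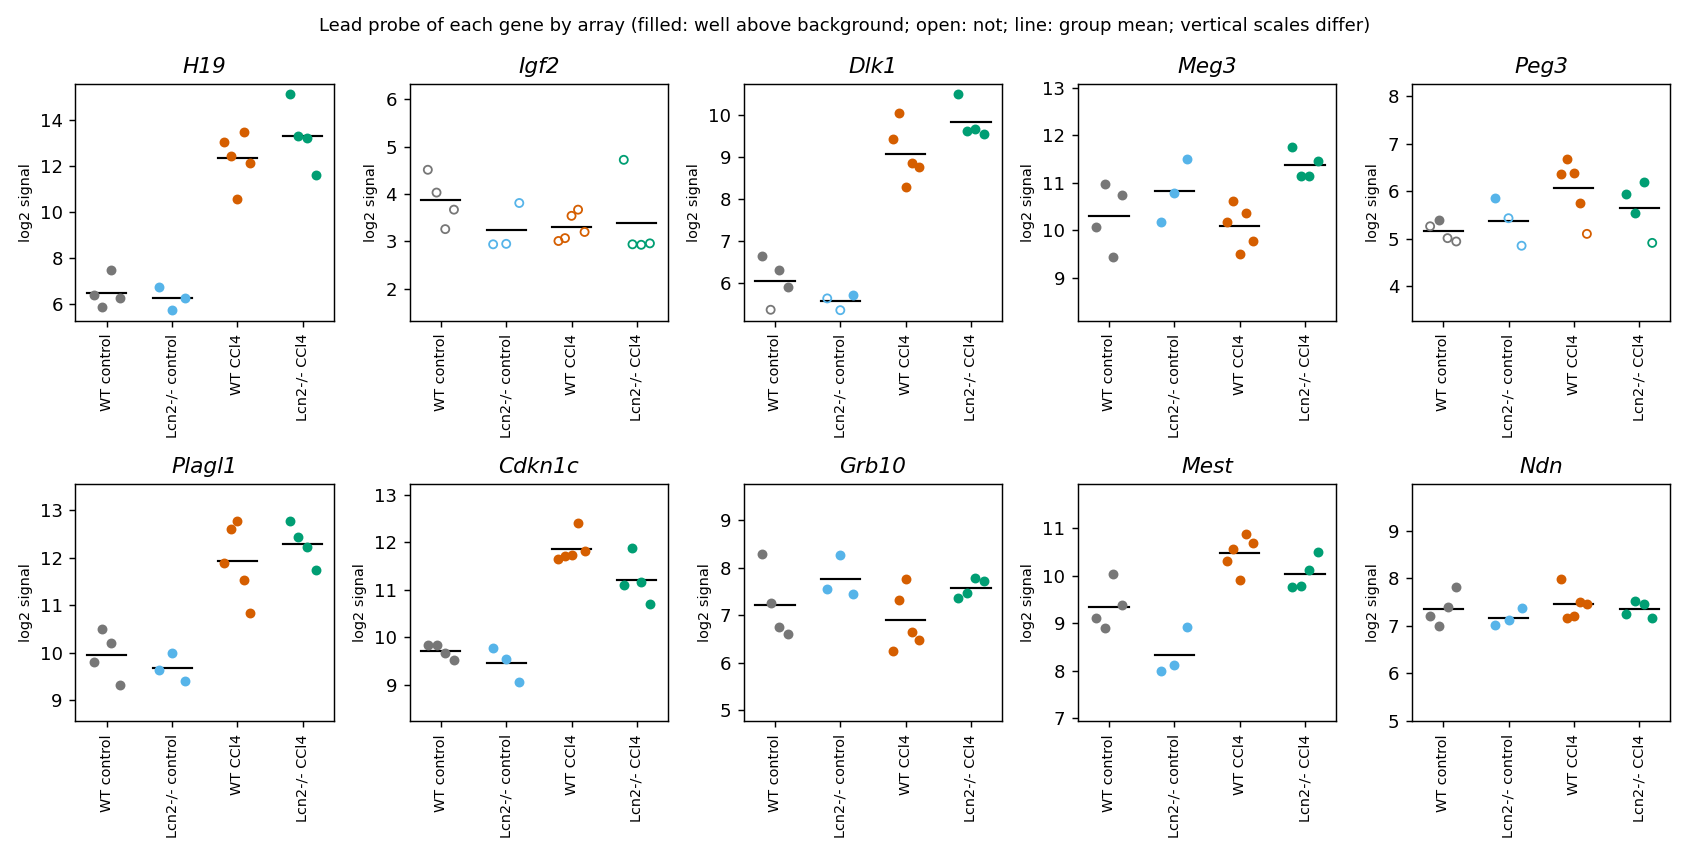
Signal (log2) of the lead probe of each of the 10 genes by group (for Igf2 its only probe), 1 point per array, filled where well above background and open where not, with a line at the group mean and a scale of its own for each gene. H19, Dlk1, Plagl1 and Cdkn1c show CCl4 arrays wholly above controls of the same genotype, and Igf2 has only open points.

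Dlk1, a paternally expressed transmembrane relative of the Notch ligands that marks hepatoblasts in fetal liver, had the largest rise after H19 among the 10 genes. Its lead probe (chr12:110698721-110698781, mm9) read 6.65, 5.36, 6.3 and 5.9 in WT controls and 5.63, 5.35 and 5.71 in Lcn2-/- controls. It read 9.43, 10.04, 8.28, 8.84 and 8.75 in WT CCl4 and 10.48, 9.61, 9.66 and 9.55 in Lcn2-/- CCl4. No control overlapped with a CCl4 liver, although the probe was well above background on 3 of 4 WT and 1 of 3 Lcn2-/- controls. The difference was 3.02 ± 0.337 (SE) in WT (adjusted p = 4.8e-05) and 4.26 ± 0.384 in Lcn2-/- (adjusted p = 1.42e-05). A second probe, dark in all controls, was at least 2.81-fold higher in WT and at least 2.4-fold higher in Lcn2-/-.

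Meg3, the maternally expressed noncoding RNA that shares an imprinted domain with Dlk1, did not pass the test after CCl4. Its lead probe (chr12:110809678-110809737, mm9) read 10.07, 10.98, 9.43 and 10.73 in WT controls and 10.17, 10.78 and 11.49 in Lcn2-/- controls. After CCl4 it read 10.18, 10.62, 9.49, 10.36 and 9.78 in WT and 11.74, 11.13, 11.13 and 11.45 in Lcn2-/-. Treated and control livers overlapped in both genotypes, with differences of -0.22 (adjusted p = 0.713) and 0.55 (adjusted p = 0.391). A second Meg3 probe gave 0.42 in WT and 1.13 in Lcn2-/- (adjusted p = 0.572 and 0.18). The third was well above background on 6 of 16 arrays and in 0 of 4 WT controls, and did not pass either (adjusted p = 0.926 and 0.633).

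Between genotypes, Meg3 was the member with the lowest adjusted p under CCl4. The 4 Lcn2-/- livers lay above the 5 WT livers, with a difference of 1.28 and an interval of 0.56 to 2 (adjusted p = 0.128). For this single value the two-sided exact permutation p was 0.00794, the smallest that 126 splits can give. The second probe differed by 0.81 (adjusted p = 0.478) and the dim one by 0.68 (adjusted p = 0.547) in the same direction, with overlapping groups. The lead probe lies in row 17 of the array. All Lcn2-/- arrays lay in the lower tier of their slide, whereas the WT CCl4 arrays other than WT CCl4 1 lay in the upper tier. WT CCl4 1, in the lower tier but on the first slide, read 10.18, inside the range of the other WT CCl4 livers. As 1 array on another slide, it cannot show what tier did on the second. On the second slide tier and genotype cannot be told apart.

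The lead probes of Meg3 and Dlk1 varied together over the CCl4 livers. The second Dlk1 probe was not tested for this relation. On it Lcn2-/- CCl4 1 read 7.75, while the other Lcn2-/- CCl4 livers read 6.36 to 6.54, inside the WT CCl4 range of 5.9 to 6.99. Over the 9 arrays Pearson's r of the lead probes was 0.843 (exact permutation p = 0.00457) and Spearman's rho was 0.833 (exact permutation p = 0.00827). Without the 2 livers farthest from the median of Dlk1, r was 0.625 (exact permutation p = 0.141, 7 arrays), so that its passing the threshold rests on those livers, whose removal also narrows the range of Dlk1. With any 1 array left out, r lay between 0.76 and 0.907. The genotypes did not overlap in Meg3, and with 5 and 4 livers they are too few for an r within each. Over the deviations from the mean of each genotype, a measure added after seeing the data, r was 0.847 (exact permutation p = 0.0146 over the 2880 reorderings within genotype, 9 arrays). Of 4 relations planned, this was the only 1 in which both probes were well above background on every array, so there was no further p to adjust it with.

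The stretches of 100 bases before the start sites of Dlk1 and Meg3 are shown because of these neighbours Dlk1 passed the test after CCl4 and Meg3 did not. They come from RefSeq on GRCm38.p6, plus strand, and capitals mark TATAAA and TGACGTCA as read on the strand shown. Both strands were searched, and the 4 lower-case bases before TATAAA together with its first 2 spell the same motif on the other strand.
Dlk1, chr12:109452723-109452822: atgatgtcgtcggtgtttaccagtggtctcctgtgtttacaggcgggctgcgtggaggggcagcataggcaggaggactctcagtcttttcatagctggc
Meg3, chr12:109540896-109540995: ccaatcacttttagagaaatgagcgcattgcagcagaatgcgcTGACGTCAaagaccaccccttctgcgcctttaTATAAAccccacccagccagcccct
Promoter windows of 300 bases were on hand for 8 of the 10 genes. As a gene can have several starts, they came to 15 windows. TATAAA was in 1 of the 15, at the first of the 2 Meg3 starts, and in 13.6% of all 32851 windows. TGACGTCA was in 2 of the 15, at Peg3 and the same Meg3 start, and in 1.79% of all. GGGGCCCC, letters known from sites of the factor that Plagl1 encodes, was in 1 of the 15, at Peg3, and in 1.08% of all. These are matches of letters, and their absence from the other windows says nothing about a factor.

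Plagl1, a paternally expressed zinc finger transcription factor that regulates other imprinted genes, rose on some of its probes and not on others. The lead probe (chr10:12850832-12850891, mm9) read 9.81, 10.49, 10.21 and 9.32 in WT controls and 9.64, 9.98 and 9.41 in Lcn2-/- controls. After CCl4 it read 11.88, 12.6, 12.78, 11.52 and 10.84 in WT and 12.77, 12.43, 12.22 and 11.74 in Lcn2-/-. Again the CCl4 livers lay wholly above the controls, by 1.97 ± 0.364 (SE) in WT (adjusted p = 0.00213) and 2.61 ± 0.414 in Lcn2-/- (adjusted p = 0.00114). A second probe that starts 448 bases further on gave almost the same values, 1.93 and 2.55 (adjusted p = 0.002 and 0.00108).

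These 2 Plagl1 probes are not separate evidence, because they share sequence. The run in common is printed for that reason, and its 26 bases are all in capitals.
Plagl1 shared run: ATCTCCTAACCTTTGATGACTCTGTA
In the best alignment without gaps, 46 of 48 bases of the 2 probes matched. The other 2 Plagl1 probes lie upstream and share no more than 6 bases with each other or with the pair. Both were well above background on all 16 arrays and did not pass the test. The probe at chr10:12848421-12848480 differed by -0.17 in WT (95% interval -0.51 to 0.17, adjusted p = 0.522) and by -0.15 in Lcn2-/- (-0.54 to 0.24, adjusted p = 0.639). For the probe at chr10:12848851-12848910 the differences were -0.29 (-0.63 to 0.05, adjusted p = 0.251) and -0.11 (-0.5 to 0.28, adjusted p = 0.738). The intervals of the upstream probes and of the downstream pair do not meet, so the call on Plagl1 holds for the stretch that the downstream pair reads.

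**Figure D3:**
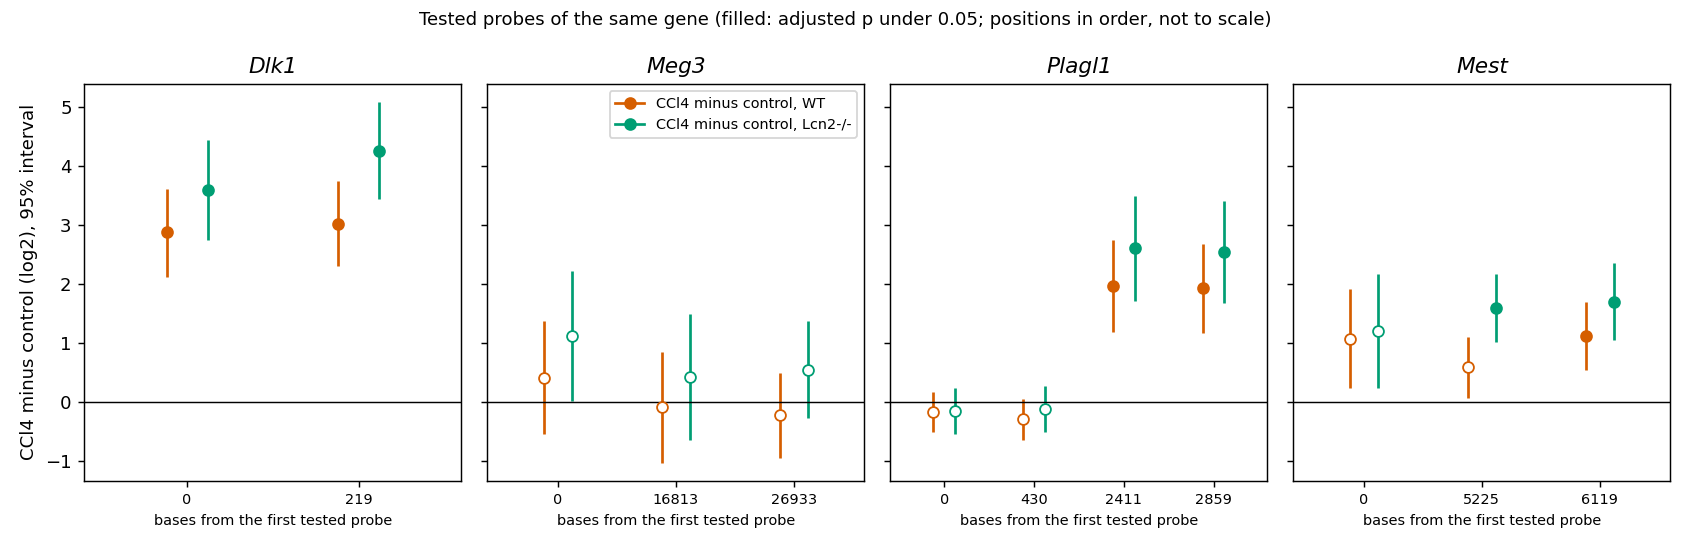
Difference between CCl4 and control (log2) with its 95% interval for each tested probe of Dlk1, Meg3, Plagl1 and Mest, in genomic order, with the distance in bases from the first tested probe, filled where adjusted p is under 0.05. The Plagl1 probes split into a pair near 0 and a pair near 2 or above, and the Meg3 probes are all open. The first Dlk1 probe was dark in all controls, so its filled points and intervals rest on upper bounds and are not read as calls. The first Mest probe was dark in all Lcn2-/- livers, so its Lcn2-/- interval rests on no measured level.

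Cdkn1c, a maternally expressed inhibitor of cyclin-dependent kinases that holds cells out of the cycle, was higher after CCl4 in both genotypes. Its 1 probe (chr7:150644753-150644812, mm9) read 9.84, 9.83, 9.66 and 9.53 in WT controls and 9.78, 9.54 and 9.06 in Lcn2-/- controls. It read 11.66, 11.71, 11.74, 12.4 and 11.82 in WT CCl4 and 11.11, 11.89, 11.16 and 10.71 in Lcn2-/- CCl4. The treated livers lay above the controls without overlap, by 2.15 ± 0.224 (SE) in WT (adjusted p = 2.95e-05) and 1.75 ± 0.255 in Lcn2-/- (adjusted p = 0.000598). Under CCl4 the Lcn2-/- livers were 0.65 lower on average (adjusted p = 0.253, interval -1.13 to -0.17), and the groups overlapped.

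Mest, a paternally expressed gene for an enzyme of the alpha/beta hydrolase fold that is active in growing mesoderm and fat, rose less. Its lead probe, printed on 10 spots of the array (chr6:30698279-30698338, mm9), read 9.11, 8.9, 10.03 and 9.38 in WT controls and 7.99, 8.12 and 8.92 in Lcn2-/- controls. After CCl4 it read 10.32, 10.57, 9.91, 10.88 and 10.69 in WT and 9.77, 9.78, 10.13 and 10.51 in Lcn2-/-. In WT the groups overlapped through control 3 and CCl4 3, and in Lcn2-/- they did not. The difference was 1.12 ± 0.271 (SE) in WT (adjusted p = 0.0122) and 1.7 ± 0.308 in Lcn2-/- (adjusted p = 0.00272). Without WT control 2 the WT value was 0.97 (adjusted p = 0.0509). A second Mest probe passed in Lcn2-/- alone, at 0.59 in WT (adjusted p = 0.116) and 1.6 in Lcn2-/- (adjusted p = 0.00182), with a difference between these responses of 1.01 (adjusted p = 1). The remaining Mest probe was dim, with 4 of 16 arrays well above background: 1 of 4 WT controls and 3 of 5 WT CCl4 livers. It did not pass in WT (limma, adjusted p = 0.0815). In Lcn2-/- both groups were dark, so its adjusted p of 0.101 there rests on no measured level.

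In control livers, Mest was the member with the lowest adjusted p between genotypes. Its lead probe was 1.01 lower in Lcn2-/- (interval -1.67 to -0.35, adjusted p = 0.246), and the second probe was 1.09 lower, with no overlap of the groups (adjusted p = 0.122). With 4 against 3 arrays taken as unpaired, the exact permutation p of the lead probe was 0.0857. The control arrays pair by replicate number, and in each of the 3 pairs Mest was lower in Lcn2-/- on both probes. All WT controls lay in the upper tier and all Lcn2-/- controls in the lower, so tier and genotype cannot be told apart here. Controls with equal replicate numbers also had equal positions within the tier, so pair and position cannot be told apart either. A replicate block over all 4 groups gave -0.9 for the lead probe (limma, adjusted p = 0.334). That block also ties the CCl4 arrays by number, which the data do not pair, so it is not a fit of the control pairs alone.

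The other 3 tested genes did not pass in either genotype. Peg3, a paternally expressed zinc finger protein, was dim. It read 5.26, 5.4, 5.01 and 4.94 in WT controls and 6.37, 6.68, 6.39, 5.74 and 5.1 in WT CCl4, a difference of 0.91 (adjusted p = 0.0768), and its probe was well above background on 1 of 4 and 4 of 5 of these arrays. In Lcn2-/- livers the Peg3 difference was 0.26 (adjusted p = 0.699). A second Peg3 probe was well above background on 1 of 16 arrays and was not tested. Grb10, an adaptor that binds the insulin and IGF1 receptors and dampens their signal, ranged from 6.6 to 8.28 in WT controls and from 6.24 to 7.76 in WT CCl4. Its differences were -0.33 (interval -1.09 to 0.43, adjusted p = 0.578) and -0.17 (-1.04 to 0.69, adjusted p = 0.826). Ndn, which encodes the growth suppressor necdin, stayed between 7 and 7.98 on all 16 arrays. It differed by 0.11 (-0.29 to 0.5, adjusted p = 0.746) and 0.18 (-0.27 to 0.63, adjusted p = 0.639).

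Between genotypes 0 of the 9 tested genes passed, under CCl4, in controls or in the interaction (limma, adjusted p under 0.05). The share called over all probes was 0.524% under CCl4, 0.485% in controls and 0.0333% for the interaction. At an unadjusted p under 0.05 there were 3 of the 9 under CCl4 (Dlk1, Meg3 and Cdkn1c), 1 in controls (Mest) and 1 in the interaction (Dlk1), where 12.7%, 8.19% and 3.29% of all probes were under it. The Dlk1 response was 1.25 larger in Lcn2-/- than in WT, with an interval of 0.15 to 2.34, and its adjusted p was 1. All differences between genotypes under CCl4 had intervals between -1.13 and 2.36. Lcn2 itself, read as a check of the labels, lay between 13.8 and 17.57 in WT and between 10.46 and 12.25 in Lcn2-/- livers. The groups did not overlap, but the probe was well above background in all 7 Lcn2-/- livers, and whether it lies in the deleted part of the gene was not analysed here.

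**Figure D4:**
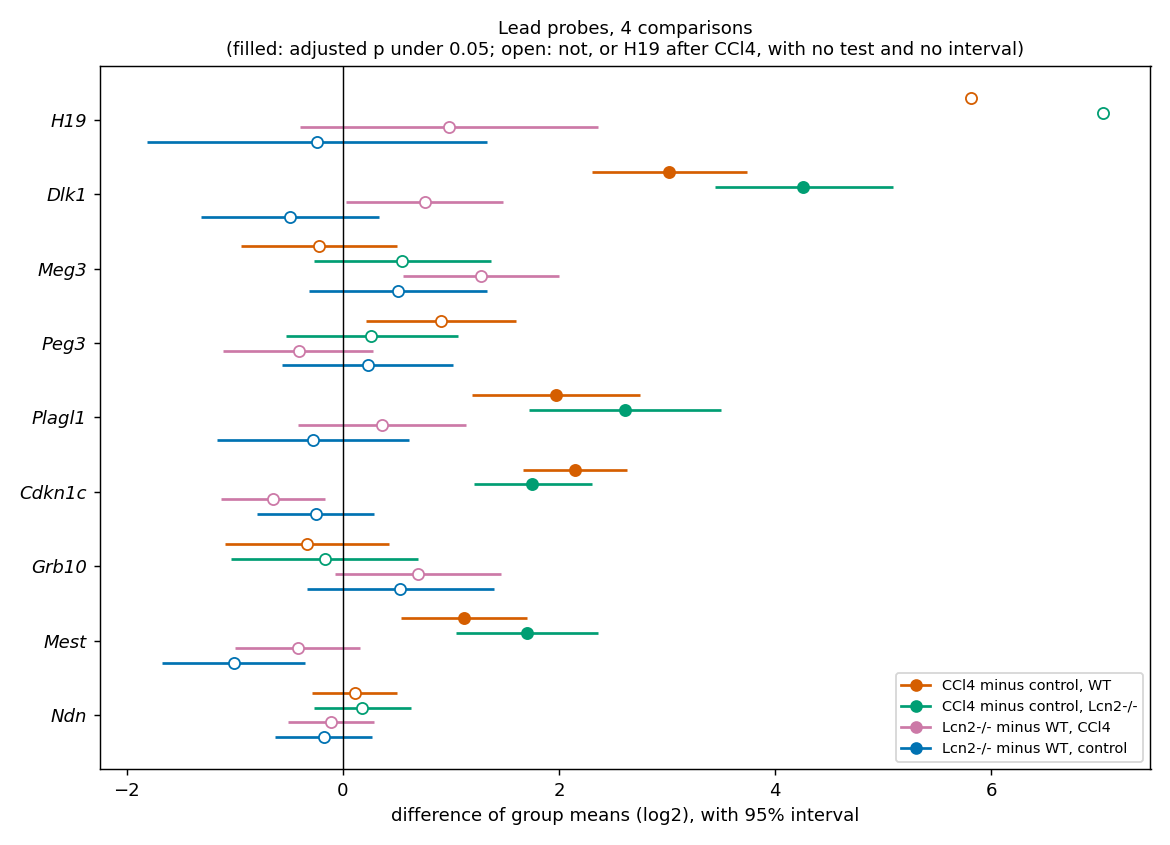
Difference of group means (log2) for the lead probes of the 9 tested genes in 4 comparisons, with 95% intervals, filled where adjusted p is under 0.05 and open otherwise, and H19 after CCl4 given without interval or test. Filled points occur for Dlk1, Plagl1, Cdkn1c and Mest in the 2 responses to CCl4, and none occurs for a difference between genotypes.

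Other imprinted genes were counted in the same way. Of 43 such genes outside the set, 34 were tested, 5 passed as higher and 1 as lower in each genotype, and 28 did not pass. That is 17.6%, beside 15.9% in WT and 11.6% in Lcn2-/- over the lead probes of all tested genes, and 2 of the 6 calls in Lcn2-/-, Slc22a3 and Nap1l5, were on probes dark in all 7 Lcn2-/- livers. Slc22a3, Nap1l5 and Nnat entered the test only through groups in which they were high, so nothing is read from these shares. The median difference was 0.08 in WT and 0.11 in Lcn2-/-. The transporter gene Slc22a3 was well above background in all 4 WT controls and in 0 of the other 12 livers. Slc22a3 entered the test only through those controls, so its WT call is given without a p. In WT it was at least 3.25-fold lower after CCl4. In Lcn2-/- both groups were dark, so that its call there rests on no measured level. Osbpl5, which encodes an oxysterol-binding protein, was higher by 1.3 and 0.95 (adjusted p = 0.000335 and 0.0104). Nnat, the gene of the small membrane protein neuronatin, was dark in all controls and at least 1.68-fold higher in WT CCl4. In Lcn2-/- CCl4 it was well above background in 3 of 4 livers, and its call there is given with no fold and no p. Nap1l5 was dark in WT controls and well above background in 4 of 5 WT CCl4 livers, and the groups overlapped. It entered the test only through those 4 livers, so its WT call is given without a p. It was dark in all Lcn2-/- livers, so that its call there rests on no measured level either. Sgce was also higher in both genotypes, Dcn in WT alone and Copg2 in Lcn2-/- alone, and the difference between these responses was not called for either (adjusted p = 1 for both).

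Genes of IGF signalling passed in both directions in WT. Of 15 tested, 3 were higher and 2 lower in WT, and 3 were higher and 0 lower in Lcn2-/-, beside the same 15.9% and 11.6% of all genes called. Igf1, the liver's main IGF ligand after birth, lay between 16.93 and 17.29 in WT controls and between 16.3 and 16.96 in WT CCl4. Its difference was -0.39 in WT (adjusted p = 0.0903) and -0.3 in Lcn2-/- (adjusted p = 0.275). Igf2r, the imprinted receptor that clears IGF2, differed by 0.09 and 0.1 (adjusted p = 0.577 and 0.606). Igfbp7, a secreted binding protein, passed as higher in both, by 1 and 0.92 (adjusted p = 0.000517 and 0.00352). Igfbp6 and Igf1r passed as higher and Igfals and Irs2 as lower in WT, and Igfbp1 and Igfbp3 as higher in Lcn2-/-. For none of these was a difference called between the responses of the genotypes (limma, adjusted p = 1 for the 5 besides Irs2), and Igfbp6 was 2.16 higher in WT and 1.7 in Lcn2-/- (adjusted p = 0.0673). Irs2, an adaptor of the insulin receptor, read 11, 11.29, 11.69, 11.42 and 10.69 in WT CCl4 and 12.14, 12.7, 12.27 and 11.89 in Lcn2-/- CCl4, which did not overlap. That difference of 1.03 between genotypes passed (adjusted p = 0.0375), and Irs2 is named for it after its values were seen. The interaction for Irs2, 1.36, did not pass (adjusted p = 0.51).

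Of 12 genes listed as known from fetal liver, 10 were tested. In WT 5 passed as higher and 5 did not pass, in Lcn2-/- 8 passed as higher and 2 did not, 0 passed as lower, and the medians were 1.16 and 1.84. Over all genes 15.9% and 11.6% were called. Afp, the fetal serum protein, read 9.52, 9.29, 10.64 and 9.58 in WT controls and 15.85, 14.09, 12.1, 12.66 and 12.59 in WT CCl4. In Lcn2-/- it read 9.38, 8.93 and 10.21 in controls and 12.45, 12.19, 12.87 and 11.54 after CCl4. The groups did not overlap, and the differences were 3.7 (adjusted p = 0.00111) and 2.76 (adjusted p = 0.0225). Its highest liver was WT CCl4 1, while the highest for H19 was Lcn2-/- CCl4 1. Gpc3, a heparan sulfate proteoglycan of fetal liver, was higher by 4.27 and 4.25 (adjusted p = 2.35e-05 and 0.000104). Scd2, a fatty acid desaturase, was higher by 2.79 and 1.91 (adjusted p = 0.000891 and 0.0307), and Lpl, lipoprotein lipase, by 2.57 and 2.7 (adjusted p = 1.78e-05 and 4.96e-05).

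Of the regulators listed for these genes, 1 passed, where 15.9% of all genes were called in WT and 11.6% in Lcn2-/-. Zhx2 represses H19, Afp and Gpc3 in the liver after birth and is disrupted in the substrain BALB/cJ, and the substrain used is not given in the sources used here. Its probe was dim, well above background on 10 of 16 arrays, and differed by -0.05 (interval -0.84 to 0.75, adjusted p = 0.953) in WT. In Lcn2-/- it was well above background in 0 of 3 controls and 3 of 4 CCl4 livers, the groups overlapped and the response did not pass (adjusted p = 0.546). Of Zhx2, Zbtb20, Zhx1 and Zhx3, 0 of 4 passed in either response (limma), and at an unadjusted p under 0.05 there was 1 in WT (Zhx3) and 0 in Lcn2-/-. Of 12 tested factors that maintain imprints, among them Ctcf, Trim28, Dnmt1 and the Tet genes, 1 was lower in WT and 0 passed in Lcn2-/- (limma, also 0 at an unadjusted p under 0.05). That 1 was Zfp57, a zinc finger protein that guards imprints in the embryo, at -0.71 (adjusted p = 0.0442).

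**Figure D5:**
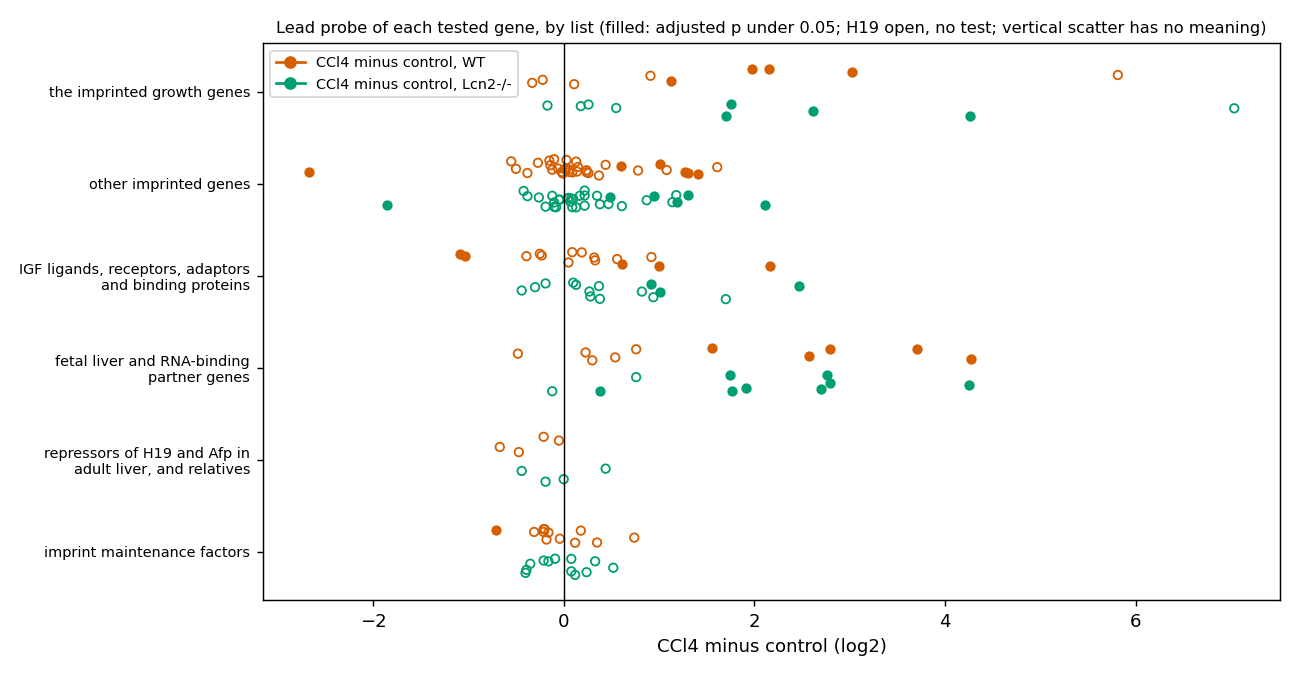
Difference between CCl4 and control (log2) of the lead probe of each tested gene, 1 point per gene and genotype, in rows for the imprinted growth genes and 5 further lists, filled where adjusted p is under 0.05. Most of the 34 other imprinted genes lie near 0, while Afp, Gpc3, Scd2 and Lpl lie above 1.9 in both genotypes. The filled points of Slc22a3, Nap1l5 and Nnat rest on groups that were dark, and nothing is read from them.

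Markers of stellate cells were higher after CCl4 in most cases. Of 8 hepatocyte markers 0 passed in either genotype (limma), with 1 at an unadjusted p under 0.05 in WT (Tat) and 0 in Lcn2-/-, and their mean per array lay between 17.88 and 18.32. Of 12 markers of stellate cells and myofibroblasts, 9 were higher in WT and 8 in Lcn2-/-. Their mean per array lay between 9.52 and 10.87 in WT controls, 9.52 and 9.96 in Lcn2-/- controls, 11.23 and 12.04 in WT CCl4, and 10.94 and 11.64 in Lcn2-/- CCl4. Of 5 mesothelial markers, 2 were higher in WT and 1 in Lcn2-/-, and Wt1, also a gene of stellate cells, was higher by 3.57 and 3.05 (adjusted p = 4.91e-05 and 0.000751). The mean of the mesothelial list lay between 6.3 and 7.75 over the controls and between 7.38 and 9.68 over the CCl4 livers. Of 8 macrophage markers 3 were higher in each genotype, of 7 cholangiocyte markers 1, of 8 endothelial markers 1 and of 7 proliferation markers 1, where 15.9% and 11.6% of all genes were called. In WT, Clec4f of Kupffer cells, Stab2 of sinusoidal endothelium and Alas2 of red cells were lower. Of other tissues, skeletal muscle had 2 of 6 markers tested, pancreas 3 of 6 and fat 3 of 5. In WT 1 of each was higher (Myl1, Amy2a5 and Fabp4) and 1 of pancreas and of fat was lower (Ctrb1 and Cfd), and in Lcn2-/- Myl1 and Fabp4 were higher. The mean of the 2 muscle markers lay between 3.95 and 4.31 in WT controls and between 3.46 and 4.15 in Lcn2-/- controls. That is under 4.36, the lowest signal of any probe well above background, so nothing is read from the muscle calls. The part of these cell types in the rise of H19 and the other genes was not tested.

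The genes most like H19 were looked up as a description, with no test. Over all 16 arrays, which share the contrast of treatment, the likest of 24318 other genes was Dlk1, with r = 0.97 between lead probes. The Dlk1 probe was well above background on 4 of the 7 controls, so its r rests in part on upper bounds. Next came Sult2a1, a sulfotransferase of steroids and bile acids, at 0.966, whose probe was dark in all 7 controls so that its r rests on upper bounds there. Then came Aldh1b1, a mitochondrial aldehyde dehydrogenase, at 0.964, a transcribed region of chromosome 2 without a gene name at 0.963 and Gpc3 at 0.959. Among the set, Cdkn1c followed at 0.888, Plagl1 at 0.878 and Mest at 0.768, while Meg3 was at 0.174 and Grb10 at -0.277. Over deviations from the group means, which leave out treatment and genotype, the order was another. Mvd led at 0.851, then Gm8055, 4930525G20Rik at 0.826, Mvk at 0.82 and a probe without a gene name at 0.797. Mvd and Mvk encode enzymes of the mevalonate pathway to cholesterol. Neither passed the test after CCl4, and Mvd read 12.69 in Lcn2-/- CCl4 1 and 10.59 in WT CCl4 3, the livers with the most and the least H19 after CCl4. On the same measure Dlk1 was at 0.598 and Plagl1 at 0.00108.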

How the data were processed

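Whole liver RNA of 16 mice was measured on 1-colour Agilent arrays, 1 per mouse. The authors labelled it with Cy3 and scanned it, and each deposited file holds spot intensity on a linear scale from Feature Extraction 10.7.3.1, with positions on mm9. The authors also deposited log2 values, which for 99.81% were within 0.05 of the log2 of background-subtracted median signal after quantile normalization. These were an alternative. Here log2 processed signal of 59305 gene spots was quantile normalized, as the study's methods name, and averaged per probe (55560 probes). The 33014 probes that the image software called well above background in 3 or more livers entered limma 3.58.1 (R 4.3.3), as 1 model of the 4 groups without a block, with Benjamini-Hochberg adjustment over all probes in each of 5 contrasts and a threshold of 0.05. This was tested on simulated data. A gene is counted by its lead probe, its brightest tested probe.

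The genes, lists and tests were chosen with earlier results of these data known. Named are all members with their probes (those of H19 partly by range), of each list up to 4 genes past the threshold with the same sign in both genotypes, by the largest mean change, Igf1, Igf2r, Afp, Gpc3, Zhx2, Lcn2 and the 5 genes likest H19 on each of 2 measures. Other genes named beside a count were chosen after their values were seen. Groups and replicate numbers came from sample titles. Equal numbers paired the control arrays, whose deviations correlated for all 3 pairs (0.201 to 0.516), and no other groups. Per array, 51.6% to 60.9% of gene spots passed the background call and 0 were saturated, and the number of arrays limits precision. The SD of the difference between 2 arrays of a group was 0.479 to 0.877, so none was a duplicate. Beyond the promoter windows no genome was used, and none on mm9, so whether probes lie in exons or UTRs was not analysed here.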

Additional observations from a re-analysis of the deposited data

Results flagged for a closer look

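In 2 of 27 groups of 4 or 5 livers, 1 liver stood apart from the rest on the lead probe, where chance gives about 1 in 20. Dlk1 read 10.48 in Lcn2-/- CCl4 1 against 9.55 to 9.66 in the other livers of the group, a gap of 0.879 of the whole range. Cdkn1c read 12.4 in WT CCl4 4 against 11.66 to 11.82 in the other livers, a gap of 0.781 of the whole range. Lcn2-/- CCl4 1 and WT CCl4 4 were also the livers with the most H19 in their groups.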

How the results depend on the processing

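The 29 alternatives were other scalings, background corrections, filters, weights, blocks and probe summaries, and arrays left out, and 3 were added after seeing the data, 2 within-slide fits and the relation of Dlk1 and Meg3 within genotype. The rise of H19 lay between 4.86 and 6.52 in WT and between 6.01 and 7.92 in Lcn2-/- over them. Of 1263 values of single genes, 1248 kept their side of the threshold, 8 fell below it, 7 passed it and 0 called values changed direction, while 27 values that passed nowhere changed sign. Slide as a fixed block left 2 genes past the threshold after CCl4 in WT (Dlk1 and Cdkn1c) and 1 in Lcn2-/- (Dlk1). On the first slide alone the WT differences were 3.37 for Dlk1, 1.95 for Cdkn1c, 1.92 for Plagl1 and 0.96 for Mest. Both fits rest on WT CCl4 1, the only CCl4 array on the first slide. The differences that no longer passed under the block were 1.92 against 1.97 in the main fit for Plagl1 and 0.96 against 1.12 for Mest in WT. In Lcn2-/- they were 2.55 against 2.61 for Plagl1, 1.5 against 1.75 for Cdkn1c and 1.51 against 1.7 for Mest. The part of slide in these differences was not tested, and in Lcn2-/- slide and treatment cannot be told apart. Array weights called 1 gene between genotypes in controls (Mest, lower by 1.12 on the log2 scale, adjusted p = 0.0182). Without control replicate 3 of both genotypes together, 1 gene was called under CCl4 (Meg3, adjusted p = 0.0464, over a range of 0.0464 to 0.319 for its alternatives). Leaving out single arrays gave 3 to 5 genes in WT, 4 in Lcn2-/- and 0 between genotypes. Peg3 passed in WT in 5 of 29 alternatives. With a replicate block over all groups, 5 genes passed in WT (Peg3 too) and 4 in Lcn2-/-, and 0 between genotypes in controls. The data bear out the pairing of the controls only, and this block also ties the CCl4 arrays by number. It is therefore not a fit of the control pairs alone. For Dlk1 and Meg3 over the CCl4 arrays, r lay between 0.76 and 0.907 when single arrays were left out and between 0.77 and 0.828 under other scalings. Dim probes limit the folds, since most H19 probes had no measurable signal in controls.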
